A study of Bombyx mori with 4 samples.

Results

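The long unclassified repeats of the silkworm (Bombyx mori) transposon library are 296 sequences of at least 500 nt that carry the name of no transposon class, and the RNA that BmVasa bound on them was examined here with and without Spindle-E (Spn-E). They were taken from the 1156 unclassified sequences of that library by the class written after the name and by the length in the deposited table. BmTE_RM5-571 also meets this rule but was left out, because it alone received 69130 reads in the control and 110071 after the knockdown, several times the reads of all 296 members together. The whole table holds 18596 sequences, among them 14300 protein-coding ones.

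BmN4 is a cultured cell line from silkworm ovary. The cells were electroporated with siRNA that targets either luciferase (Luc KD, the control) or Spn-E (Spn-E KD), crosslinked by UV light at 254 nm, and BmVasa was immunoprecipitated for FAST-iCLIP, which sequences the RNA fragments attached to a protein. Each group had 2 replicates, and the authors merged them, so that 1 column per group was deposited. Every difference below is therefore one between 2 pooled libraries, has no replicate check, and carries intervals and p-values that cover counting error only. The level of Spn-E was not analysed here. The amount of each RNA in the cells was not part of the table, so more binding per RNA molecule and more of that RNA cannot be told apart.

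Vasa is a DEAD-box RNA helicase of germ cells and a core component of nuage, the perinuclear granules in which PIWI proteins and their piRNAs cleave transposon transcripts. In the silkworm the PIWI protein Siwi cleaves transposon mRNAs. The paper proposes that BmVasa releases the cleaved RNA from Siwi and so aids its passage to Ago3 for the making of further piRNAs. Spn-E is a helicase of the same pathway, and its depletion in BmN4 cells was used by the authors as a substitute for the loss of Siwi loaded with piRNA. Unclassified repeats are families recognised because their sequence recurs in the genome, while no known element has lent them a class. Whether a given one encodes a protein, or is a fragment of an element that is listed elsewhere under a class, is not given by its name.

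The BmVasa libraries held reads on almost all long unclassified repeats, but few reads on most of them. At least 1 read was found in one library or the other for all but 6 of the 296 members. All samples were BmVasa libraries, so bound RNA and background reads could not be told apart at such counts. The median member had 10 reads under Luc KD and 8 reads under Spn-E KD. No read was found for 17 members under Luc KD and for 14 under Spn-E KD. As a one-sided limit, unlike the two-sided Poisson intervals below, a count of 0 allows up to 3 reads. This is 2.96 RPM under Luc KD and 2.83 RPM under Spn-E KD. RPM is the number of reads per 1000000 genome-mapped reads, of which there were 1012269 under Luc KD and 1059323 under Spn-E KD. The members read in only one library were weak there as well: the 11 at 0 under Luc KD alone had at most 6 reads under Spn-E KD, and the 8 at 0 under Spn-E KD alone had at most 2 reads under Luc KD.

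The 6 members without a read in both libraries were BmTE_RM6-229, BmTE_RM5-136, BmTE_RM1-332, BmTE_RM6-2053, BmTE_RM5-137 and BmTE_RM6-5481. They are 572 to 1527 nt long. They made up 2.03% of the members. No read in either library was found for 11.0% of all 18596 sequences and for 10.1% of the protein-coding ones. Among the 859 unclassified sequences under 500 nt the share was 25.3%, at a median length of 223 nt against 785 nt for the members. At the lengths of the 6 members a count of 0 allows, by the same one-sided limit, between 1.85 and 5.18 RPKM.

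A few members held most of the reads. In Luc KD, the 5 members with the most reads passed 50% of the 13444 reads on members, and under Spn-E KD the first 7 passed 50% of 12526. The top 10 members took 62.0% and 59.3% of the members' reads, and the top 50 took 82.6% and 82.0%. To reach 90% of the reads, 90 members were needed under Luc KD and 89 under Spn-E KD.

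**Figure D1:**
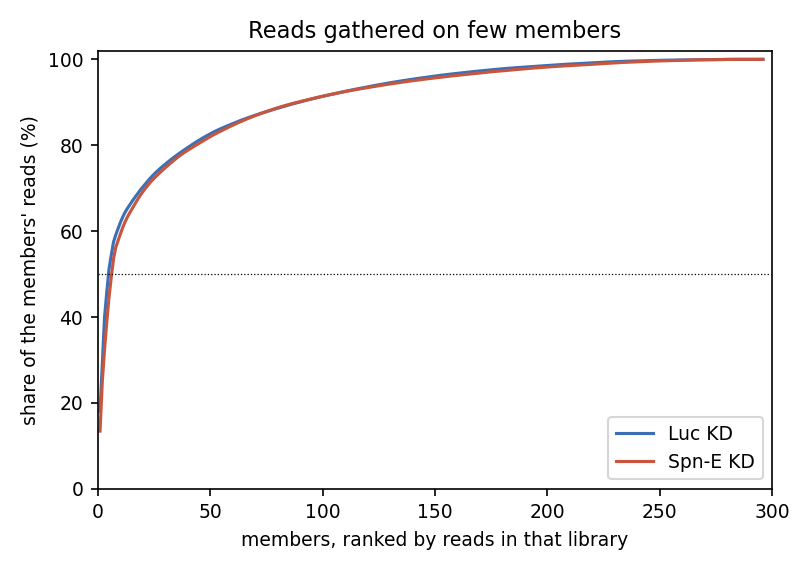
Cumulative share of the members' reads (y axis, %) against the rank of the 296 long unclassified repeats by reads (x axis), with a line for each pooled library and a dotted line at 50%. Both lines climb steeply over the first 10 members, to 62.0% under Luc KD and 59.3% under Spn-E KD, and the lines lie close together.

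BmTE_RM1-295, of 6743 nt, was the most abundant member in both libraries. It had 2428 reads under Luc KD, or 2399 RPM (95% Poisson interval 2304 to 2496), and 1684 reads under Spn-E KD, or 1590 RPM. It took 18.1% of the members' reads under Luc KD and 13.4% under Spn-E KD. BmTE_RM1-42, of 3457 nt, came next under Luc KD with 1484 reads and had 1436 under Spn-E KD. BmTE_RM6-6914, of 4176 nt, had 1453 reads under Luc KD, on a level with BmTE_RM1-42, but 533 under Spn-E KD. Its interval under Luc KD, 1363 to 1511 RPM, overlapped that of BmTE_RM1-42, 1392 to 1543 RPM, so the order of these neighbours was not set by the counts there.

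The members of the next rank lay between 405 and 886 RPM. BmTE_RM6-3840, of 5700 nt, had 790 and 939 reads under Luc KD and Spn-E KD. BmTE_RM1-43, of 3084 nt, had 727 reads in each library. ChoBm1, of 5412 nt, had 433 and 585 reads, and BmTE_RM6-1786, of only 796 nt, had 410 and 802. In Luc KD the intervals of ChoBm1 (388 to 470 RPM) and BmTE_RM6-1786 (367 to 446 RPM) overlapped, whereas under Spn-E KD BmTE_RM6-1786 stood at 757 RPM, above the 552 RPM of ChoBm1.

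The rest of the first 12 were close to each other. BmTE_RM6-181, of 1185 nt, had 226 and 336 reads, and the 4 others had between 136 and 195 reads in either library. These were BmTE_RM1-362 (191 and 195 reads), BmTE_RM6-525 (189 and 162), BmTE_RM1-135 (144 and 182) and BmTE_RM1-402 (162 and 136). For each of these 4 the intervals of the libraries overlapped.

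**Figure D2:**
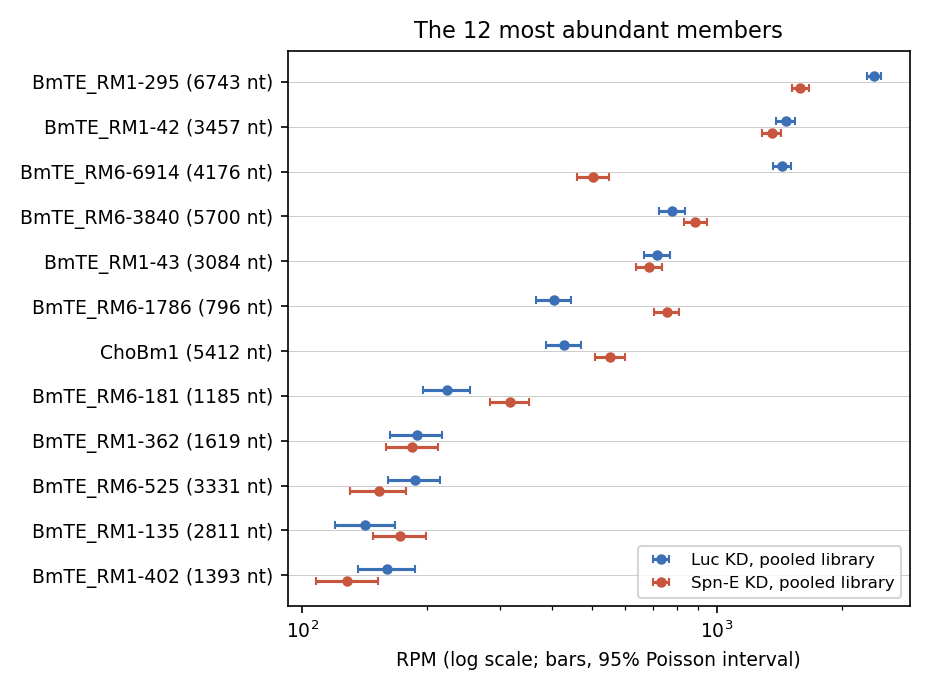
RPM (x axis, log scale) of the 12 members with the highest mean RPM, with their lengths, in the pooled Luc KD (blue) and Spn-E KD (red) libraries; bars are 95% Poisson intervals and cover counting error only. BmTE_RM6-6914 shows the widest gap, from 1435 to 503 RPM, and BmTE_RM6-1786 the widest in the other direction, from 405 to 757 RPM.

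ChoBm1 had the most reads of the 7 members whose names are not of the BmTE_RM kind. BmRT7, of 8899 nt, had 104 reads under Luc KD and 113 under Spn-E KD, and BmRT3, the longest member with 8904 nt, had 29 and 40. BmRT15, of 4409 nt, had 48 and 67 reads. Of the 23 library sequences with a BmRT number, 20 are classed as LTR retrotransposons, elements that move through an RNA copied back into DNA, and these 3 are the unclassified remainder. TE-1_BM, of 1387 nt, had 103 and 110 reads, TE-2_BM 10 and 8, and Seppuku 3 and 8. The 7 together had 730 reads under Luc KD and 931 under Spn-E KD, a log2 ratio of RPM of 0.29 (95% Clopper-Pearson interval 0.14 to 0.43). Without ChoBm1 the ratio was 0.15, and its interval, from −0.073 to 0.38, included 0.

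To compare members of different length, RPM per kilobase of sequence (RPKM) was used. The median member had 9.52 RPKM under Luc KD and 8.74 RPKM under Spn-E KD. Unclassified sequences under 500 nt had medians of 7.78 and 6.51 RPKM, LTR elements 13.5 and 13.7, DNA transposons 21.8 and 20.3, and LINEs, which are non-LTR retrotransposons, 2.41 and 2.31. Protein-coding sequences had 2.69 and 2.33 RPKM. The 16 SINEs, a class of mostly short transposons, had 30.9 and 31.6 RPKM. These classes were taken at all lengths. At 500 nt or more the medians were 14.6 and 14.3 RPKM for LTR elements, 24.8 and 26.0 for DNA transposons and 4.14 and 4.10 for LINEs. The median long unclassified repeat was thus read more densely than the median protein-coding sequence or LINE, in both libraries. It was read less densely than the median DNA, LTR or SINE element. These medians are descriptions of the tables, and sequences are not replicates.

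High density was found in short and long members alike. BmTE_RM6-1786 reached 509 RPKM under Luc KD and 951 RPKM under Spn-E KD, the highest mean of all members on this scale. BmTE_RM1-42 had 424 and 392 RPKM, BmTE_RM1-295 had 356 and 236, and BmTE_RM6-6914 had 344 and 120. BmTE_RM5-502, of 552 nt, had 170 and 318 RPKM, BmTE_RM1-43 had 233 and 223, BmTE_RM6-181 had 188 and 268, and BmTE_RM1-83, of 676 nt, had 159 and 149. The longest members, BmRT3 and BmRT7, had 3.22 and 11.5 RPKM under Luc KD. Across the 296 members, length and RPKM were unrelated by rank (Spearman's rho −0.0040 under Luc KD and −0.0035 under Spn-E KD), while longer members had more RPM (0.31 and 0.34). RPKM ranked the members alike in the libraries, with a rho of 0.89. These coefficients are across sequences that share a library and are descriptions only.

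By length, the median density ranged from 5.83 to 11.5 RPKM under Luc KD and from 5.21 to 14.3 RPKM under Spn-E KD, without rising or falling steadily. The 189 members of 500 to under 1000 nt had medians of 9.76 and 9.10 RPKM and held 22.8% of the members' reads under Luc KD. The 74 members of 1000 to under 2000 nt had 9.77 and 7.33 RPKM and 15.2% of the reads, and the 20 of 2000 to under 4000 nt had 5.83 and 5.21 RPKM and 21.4%. The 13 members of 4000 nt or more had 11.5 and 14.3 RPKM and 40.7% of the reads, most of them on BmTE_RM1-295 and BmTE_RM6-6914. Pooled over the members of each bin, from short to long, density was 23.4, 20.5, 46.6 and 75.7 RPKM under Luc KD. Under Spn-E KD it was 25.5, 19.4, 43.9 and 55.3 RPKM. Without BmTE_RM6-6914 and BmTE_RM1-295 the longest bin had 25.9 and 30.7 RPKM.

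Density differed with the series in the members' names, and was highest for BmTE_RM1. The 52 BmTE_RM1 members had a median of 40.0 RPKM under Luc KD (quartiles 13.9 and 73.9) and 40.6 RPKM under Spn-E KD. The 155 BmTE_RM6 members had 7.4 RPKM (quartiles 1.78 and 18.1) and 6.74 RPKM, the 63 BmTE_RM5 members 7.47 and 7.89 RPKM, and the 15 BmTE_RM4 members 6.98 and 9.07 RPKM. Single members of all these series overlapped. The median lengths were similar, with 737.5 nt for BmTE_RM1 and 796 nt for BmTE_RM6. With 52 of 296 sequences, BmTE_RM1 held 49.9% of the members' reads under Luc KD and 46.3% under Spn-E KD.

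BmTE_RM1 also had a higher median than BmTE_RM6 in the unclassified sequences under 500 nt, where 361 BmTE_RM1 sequences had a median of 14.4 RPKM under Luc KD and 331 BmTE_RM6 sequences 3.29 RPKM. This was not seen among the classified sequences of the library. There, 125 BmTE_RM1 sequences had a median of 2.86 RPKM under Luc KD, below the 7.97 RPKM of 174 BmTE_RM6 sequences. What the number in these names stands for is not given in the sources used here, the series were looked at after the values were known, and the difference was not tested.

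**Figure D3:**
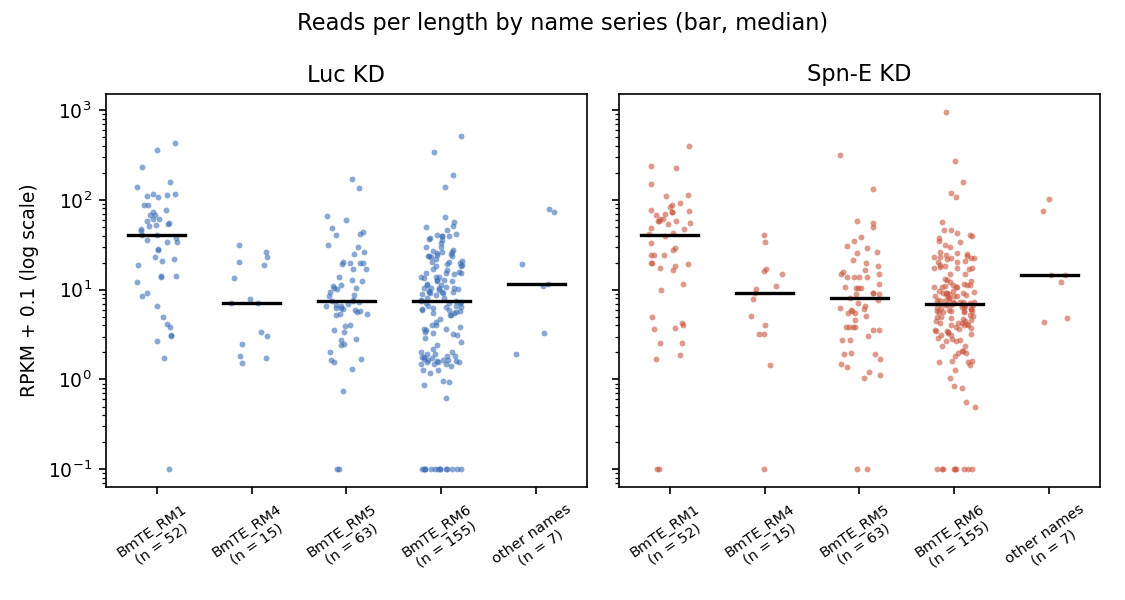
RPKM of each member (points, with 0.1 added so that members at 0 can be drawn on the log scale) by name series, under Luc KD on the left and Spn-E KD on the right; bars are medians, and the BmTE_RM2 and BmTE_RM3 series, with 3 members and 1 member, are not drawn. The BmTE_RM1 median lies at 40.0 RPKM under Luc KD and 40.6 under Spn-E KD, against 7.4 and 6.74 for BmTE_RM6, with wide overlap of the points.

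The comparison of Spn-E KD with Luc KD asked how BmVasa binding to these repeats changed when Spn-E was depleted. Reads on members went from 13444 to 12526. In summed RPM this was 13281 under Luc KD and 11825 under Spn-E KD, a log2 ratio of −0.17 (95% Clopper-Pearson interval −0.20 to −0.13), which was no fall when scaled to the gene library less BmTE_RM5-571 (0.0021) and a rise under TMM scaling (0.061) and after centring on protein-coding sequences (0.13). As a share of all gene-library reads, the members went from 3.50% (95% Wilson interval 3.44 to 3.56) to 3.11% (3.05 to 3.16), a difference of −0.393 points (95% Newcombe interval −0.472 to −0.314). With BmTE_RM5-571 taken out of the base, the shares were 4.27% and 4.28%, and the difference of 0.0061 points had an interval from −0.096 to 0.11.

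The 4 scalings tried besides the authors' own raise every log2 ratio by 0.056 (genome-mapped reads less BmTE_RM5-571), 0.17 (gene-library reads less BmTE_RM5-571), 0.23 (TMM) and 0.30 (centring), and a negative value that is smaller in size turns positive under them.

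The negative sum rested on BmTE_RM6-6914 and BmTE_RM1-295. Their reads fell by 1664 in all, from 3881 to 2217, a log2 ratio of RPM of −0.87 (95% Clopper-Pearson interval −0.95 to −0.80). Without BmTE_RM6-6914 alone, the remaining 295 members had 11991 reads under Luc KD and 11993 under Spn-E KD, a log2 ratio of RPM of −0.065 (−0.10 to −0.029) that turns positive under the 3 larger shifts. Without both, the 294 others had 9563 and 10309 reads, and the log2 ratio turned to 0.043 (0.0025 to 0.083). Both were singled out after their values were seen. Leaving out the 10 most abundant members, some of which moved upward, gave −0.062, which turns positive under the 3 larger shifts.

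For single members, the log2 fold change was taken on RPM with 1 added, which understates the change of low sequences, and the tests were limited to sequences whose mean reached 10 RPM, which were 4727 in the table and 134 of the 296 members. The other 162 members were too thinly read and were not compared one by one. Among the 134 tested members, the median log2 fold change was −0.12 (quartiles −0.47 and 0.23), with 54 higher and 80 lower under Spn-E KD. The median of all tested sequences was −0.24 and that of protein-coding ones −0.30. The members thus lay between the protein-coding sequences and the other transposon classes, since the medians were 0.25 for DNA transposons, 0.088 for LTR elements, 0.045 for LINEs and 0.0052 for short unclassified sequences. The signs of these medians depend on the scaling, and under TMM the members' median was 0.097 and that of all tested sequences −0.017. The order of members and all sequences depended on the minimum. With no minimum the members' median was −0.058 and that of all sequences −0.043.

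A difference of at least 1.5-fold was reached by 12 members upward and by 30 members downward. Over all tested sequences 10.1% reached it upward and 27.0% downward, and the members' shares, 8.96% and 22.4%, were near this background. Reads were then compared by an exact binomial test (two-sided, Benjamini-Hochberg adjusted over all 4727 sequences, threshold 0.05), which was passed by 7 members upward and 4 downward, which were 5.22% and 2.99% of those tested. The background of this test was 3.74% upward and 8.23% downward. It is mostly protein-coding, as 3544 of the 4727 sequences were, with 1.13% upward and 7.31% downward. The test was passed upward and downward by 23.3% and 5.56% of tested DNA transposons and by 18.3% and 16.5% of LTR elements. For LINEs the shares were 12.2% and 12.2%, for SINEs 7.14% and 0.0%, and for short unclassified sequences 3.08% and 3.08%. Of these 11 members, 5 of the rises and the 4 falls also reached 1.5-fold, and 4 of the 11 reached 2-fold. Without adjustment, 29 tested members had a p under 0.05. After centring, the test was passed by 13 members upward and 2 downward, and by 6.66% and 2.94% of all tested sequences.

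**Figure D4:**
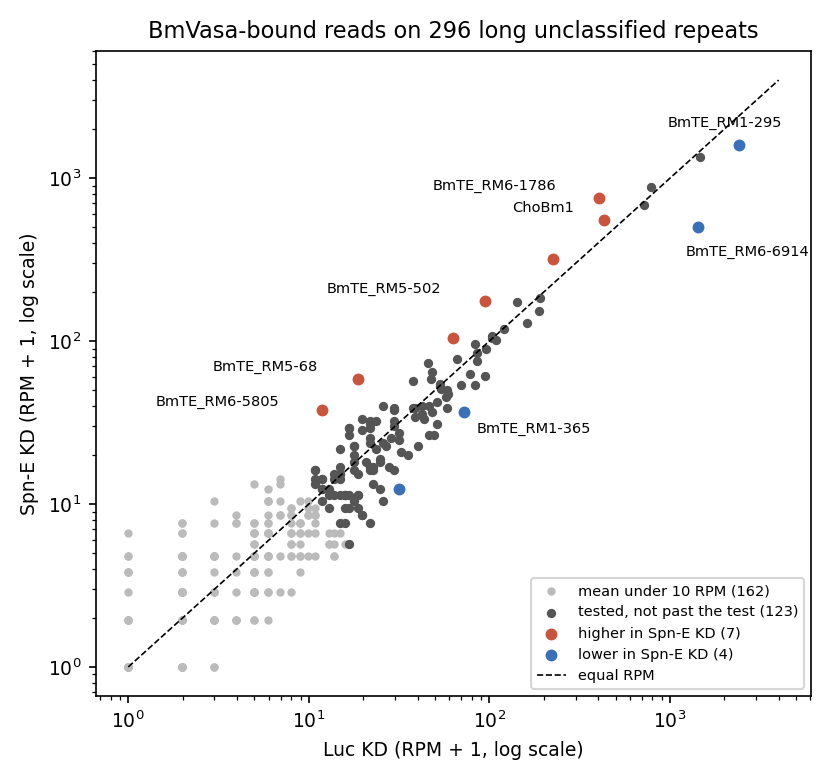
RPM + 1 of the 296 members under Luc KD (x axis, log scale) and Spn-E KD (y axis, log scale); grey points are the 162 members with a mean under 10 RPM, dark points the 123 tested members that did not pass the exact binomial test, red the 7 higher and blue the 4 lower under Spn-E KD, and the dashed line marks equal RPM. Most members follow the line, BmTE_RM6-6914 lies far below it, and BmTE_RM5-68 and BmTE_RM6-5805 lie above it at low counts.

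Intervals of single members are 95% Clopper-Pearson intervals of the log2 ratio of RPM. The 4 members that fell were BmTE_RM6-6914, BmTE_RM1-295, BmTE_RM1-365 and BmTE_RM1-65. BmTE_RM6-6914 fell from 1435 RPM (95% Poisson interval 1363 to 1511) to 503 RPM, with a log2 fold change of −1.51 (interval −1.66 to −1.37; adjusted p = 3.68e-104, exact binomial test). It was the only one of the 4 that edgeR's exact test called when a biological coefficient of variation of 0.1 was assumed between the pooled libraries (adjusted p = 8.32e-09). BmTE_RM1-295 fell from 2399 to 1590 RPM, with a log2 fold change of −0.59 (−0.68 to −0.50; adjusted p = 1.91e-36, exact binomial test), with an adjusted p of 0.0819 from edgeR's exact test at that variation. A modest change thus passed the first test on deep counts.

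The other falls rest on few reads. BmTE_RM1-365, of 1293 nt, went from 72 to 38 reads, with a log2 fold change of −0.97 (−1.59 to −0.40; adjusted p = 0.00752, exact binomial test). BmTE_RM1-65, of 575 nt, went from 31 to 12 reads, with a log2 fold change of −1.36 (−2.53 to −0.43; adjusted p = 0.0311, exact binomial test). Both lost the call under TMM scaling and after centring, and BmTE_RM1-65 also on the gene-library base.

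The 7 members that rose included BmTE_RM6-1786, the densest member. It went from 410 to 802 reads, with a log2 fold change of 0.90 (0.73 to 1.08; adjusted p = 8.79e-24, exact binomial test). BmTE_RM5-502, of 552 nt, rose by a similar factor from 95 to 186 reads (log2 fold change 0.90, interval 0.54 to 1.28; adjusted p = 1.35e-05, exact binomial test). BmTE_RM6-181 rose from 226 to 336 reads (log2 fold change 0.50), ChoBm1 from 433 to 585 reads (0.37) and BmTE_RM6-5280, of 968 nt, from 63 to 110 reads (0.73). Their adjusted p-values in the exact binomial test were 0.000825, 0.00111 and 0.0128.

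The largest fold changes among the 7 rises were those of BmTE_RM6-5805 and BmTE_RM5-68. BmTE_RM6-5805, of 4349 nt, went from 11 to 39 reads, with a log2 fold change of 1.67 (0.77 to 2.87; adjusted p = 0.00282, exact binomial test). BmTE_RM5-68, of 2958 nt, went from 18 to 61 reads, with a log2 fold change of 1.64 (0.92 to 2.54; adjusted p = 6.73e-05, exact binomial test). Per length, they went from 2.50 to 8.47 RPKM and from 6.01 to 19.5 RPKM, so that under Luc KD they lay below the median member and under Spn-E KD close to it or above. With an assumed coefficient of variation of 0.1, edgeR's exact test called 4 of the 7 rises: BmTE_RM6-1786, BmTE_RM5-68, BmTE_RM6-5805 and BmTE_RM5-502. Over all tested sequences it called 1.57% upward and 2.48% downward, and of the tested members 2.99% and 0.746%. At 0.2 it called 0.0% of all tested sequences upward and 0.169% downward and no member, with 7 members at an unadjusted p under 0.05.

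**Figure D5:**
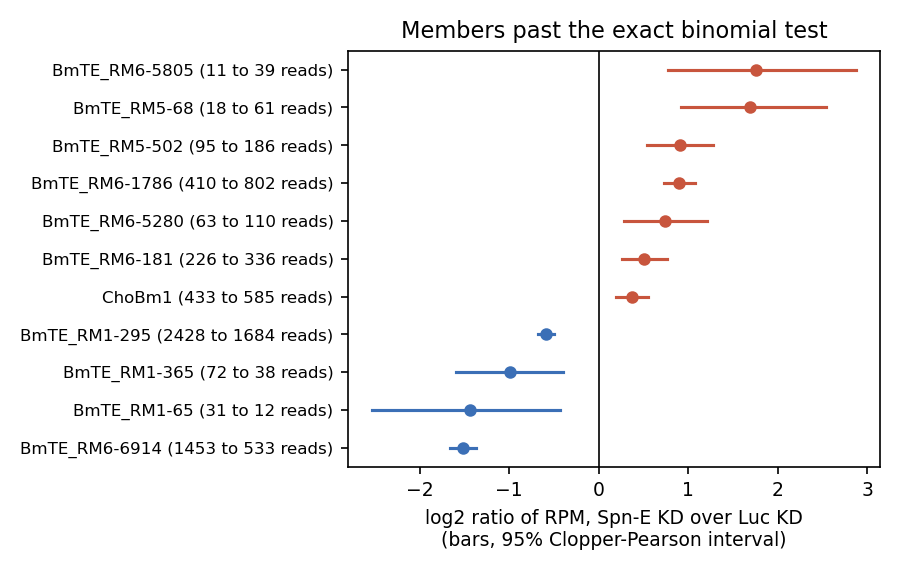
Log2 ratio of RPM, Spn-E KD over Luc KD (x axis; points, with bars for the 95% Clopper-Pearson interval), of the 11 members past the exact binomial test, labelled with their reads under Luc KD and Spn-E KD; red points are higher and blue points lower under Spn-E KD. The intervals of BmTE_RM6-6914 and BmTE_RM1-295 are narrow, and those of BmTE_RM6-5805 (11 and 39 reads) and BmTE_RM1-65 (31 and 12 reads) are the widest.

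The most abundant members that did not pass had values close to each other in the libraries. BmTE_RM1-42 had a log2 fold change of −0.11 (interval −0.22 to −0.0073), BmTE_RM1-43 one of −0.065 (−0.22 to 0.085) and BmTE_RM6-3840 one of 0.18 (0.046 to 0.32), and the negative values turn positive under the 3 larger shifts of scaling. With adjusted p-values of 0.164, 0.676 and 0.0641 in the exact binomial test, they were not separated after adjustment. BmTE_RM6-3840 passed as higher under each of the 4 other scalings, and BmTE_RM1-42 (0.18) and BmTE_RM1-43 (0.23) passed as higher after centring.

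By series, none of the 7 rises under the authors' scaling was a BmTE_RM1 member, while 3 of the 4 falls were. Over all tested sequences, 3.74% passed upward and 8.23% downward, and 40 of the 134 tested members were BmTE_RM1. The contrast depended on the scaling. Under TMM and after centring, BmTE_RM1-135 passed as higher (0.5 and 0.57), and BmTE_RM1-365 and BmTE_RM1-65 lost their calls as lower. After centring, BmTE_RM1-42 and BmTE_RM1-43 also passed as higher. Of 40 tested BmTE_RM1 members, 12 were higher (30.0%), of 56 BmTE_RM6 members 21 (37.5%) and of 26 BmTE_RM5 members 12 (46.2%), against 34.5% of all tested sequences. Without BmTE_RM1-295 the other 51 BmTE_RM1 members had 4278 reads under Luc KD and 4121 under Spn-E KD, a log2 ratio of −0.12 (95% Clopper-Pearson interval −0.18 to −0.057) that turns positive under the 3 larger shifts. The 155 BmTE_RM6 members had 4789 and 4488 reads. Without BmTE_RM6-6914 the remaining 154 had 3336 and 3955, a log2 ratio of 0.18 (0.11 to 0.25), and without BmTE_RM6-1786 as well 2926 and 3153, a ratio of 0.042 (−0.031 to 0.12). The BmTE_RM5 members had 1049 and 1109 reads, a ratio of 0.015 (−0.11 to 0.14). Whether the series differed in their change was not tested.

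By length, the summed reads of the members of 500 to under 1000 nt went from 3063 to 3490, a log2 ratio of RPM of 0.12 (0.052 to 0.19), which rested on BmTE_RM6-1786. Without it the other 188 had 2653 and 2688 reads, and the ratio was −0.047, with an interval from −0.12 to 0.031. The sum of the 4000 nt and longer members went from 5468 to 4185, a ratio of −0.45 (−0.51 to −0.39). Without BmTE_RM6-6914 and BmTE_RM1-295, the other 11 of these longest members had 1587 and 1968 reads, and the ratio turned to 0.24 (0.15 to 0.34). Both were left out for their falls after the values were seen, and no rise was left out here. A shift upward therefore followed from the choice, and the interval does not cover it. By level, the 17 members with a mean of 100 RPM or more were divided evenly, with 8 higher and 9 lower and a median log2 fold change of −0.030, against −0.16 for all 406 sequences of that level. Of the 39 members between 30 and 100 RPM, 14 were higher and 25 lower, and of the 78 between 10 and 30 RPM, 32 were higher and 46 lower. Their median log2 fold changes were −0.17 and −0.18, against −0.24 for all sequences at each of these levels. Over the 134 tested members, length and log2 fold change had a Spearman's rho of 0.043.

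Set against the other classes of the library, the members as a whole held a smaller part of the reads under Spn-E KD. Odds ratios of reads, which are free of the scaling, were computed for 5 classes with Fisher's exact test and Benjamini-Hochberg adjustment over the 5. The log2 odds ratio was −0.60 against DNA transposons (95% interval −0.65 to −0.55; adjusted p = 8.29e-109, Fisher's exact test), whose reads went from 8562 to 12103. It was −0.23 against LINEs (−0.29 to −0.18), −0.30 against SINEs (−0.52 to −0.082), −0.12 against LTR elements (−0.17 to −0.081) and −0.12 against short unclassified sequences (−0.19 to −0.061). Without BmTE_RM6-6914 and BmTE_RM1-295, the deficit against DNA transposons was −0.39 (−0.45 to −0.33), that against LINEs was −0.024 (−0.085 to 0.037), and that against SINEs −0.093 (−0.31 to 0.13). The ratio against LTR elements turned to 0.086 (0.038 to 0.13) and that against short unclassified sequences to 0.087 (0.021 to 0.15). Both members were chosen for their falls after the values were seen, and nothing was left out of the other classes. An upward shift of each ratio thus followed from the choice, so the positive values show no relative gain. Leaving out BmTE_RM1-295 alone ended the calls against LTR elements (−0.045), SINEs (−0.22) and short unclassified sequences (−0.045). These tests compare the pooled libraries, and reads on one sequence are not independent samples of a class.

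The limit of 500 nt cuts through a dense range of lengths. Just inside it, BmTE_RM6-892, of 500 nt, had 0 reads under Luc KD and 3 under Spn-E KD, BmTE_RM6-994, of 502 nt, 12 in each, and BmTE_RM6-2344, of 504 nt, 2 and 4. Just outside, at 499 nt, BmTE_RM5-2284 had 16 and 14 reads, BmTE_RM5-1994 15 and 12, and BmTE_RM6-250 8 and 4. Members may share sequence with each other or with classified elements, and the part that reads matching several sequences have in these values was not tested.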

How the data were processed

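BmVasa FAST-iCLIP libraries from 4 BmN4 samples (Luc KD and Spn-E KD, 2 replicates each) were used, grouped by their titles. Per the authors, adaptors were trimmed (Cutadapt 4.0), duplicates sharing a random barcode were merged, and reads were mapped to the SilkBase genome with STAR 2.7.9a and then with Bowtie 1.3.1 to gene models and transposons, in random and multiple counting modes, and sense reads were counted (SAMtools 1.15). The deposited read counts pool the replicates of each group. The deposited RPM values are counts per 1000000 genome-mapped reads and the deposited RPKM values are RPM per kb of sequence, both checked against the counts. Where a read matches several repeats, the mode behind the deposited column is not given in the sources used here.

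Over the whole table, sequences reaching a mean of 10 RPM were compared by an exact binomial test on the counts (two-sided, Benjamini-Hochberg adjusted). As an alternative, variation between the libraries was assumed in edgeR's exact test. A pseudocount of 1 RPM was used. Named members were the 12 highest by RPM, the 8 highest by RPKM, up to 8 rises and 8 falls past the test, the 5 longest and the 3 on each side of the length limit. The 7 members without a BmTE_RM name, the members at 0 in both libraries and the name series were added after their values were seen. The members and lists were chosen with earlier results of these data known. The code was tested on simulated data. Intervals are at 95% and cover counting error only. Sequences of the members and the level of Spn-E were not analysed here. Software comprised R 4.3.3 with edgeR 4.0.16, and Python 3.11.15 with pandas 2.3.3, numpy 2.4.6, scipy 1.17.1, statsmodels 0.14.6 and matplotlib 3.10.9.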

Additional observations from a re-analysis of the deposited data

How the results depend on the processing

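No paired analysis was possible because the table used here holds 1 pooled column per group, so that neither a replicate block nor a fit without single replicates was run. Values of single replicates in the study's supplement were not used here. The sum over members (log2 ratio −0.17) turned to 0.0021 on a base of gene-library reads less BmTE_RM5-571, 0.061 under TMM, 0.13 after centring on protein-coding sequences and 0.043 without BmTE_RM6-6914 and BmTE_RM1-295. It kept its sign at −0.11 on a base of genome-mapped reads less BmTE_RM5-571.

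The median of tested members (−0.12) was −0.068 on a base of genome-mapped reads less BmTE_RM5-571, and 0.041, 0.097 and 0.16 under the other scalings in the order above. It was −0.058 with no minimum, where all sequences had −0.043, and −0.035 at 50 RPM, where they had −0.18. It was −0.11 with a pseudocount of 5 and −0.14 at 1000 nt or more. Members past 1.5-fold (12 higher, 30 lower) were 16 and 26 on a base of genome-mapped reads less BmTE_RM5-571 (11.5% and 24.6% of all tested sequences). They were 21 and 20 on a base of gene-library reads less BmTE_RM5-571 (14.6% and 18.7%). Under TMM they were 25 and 18 (17.0% and 16.4%) and after centring 29 and 14 (19.4% and 13.5%). They were 55 and 76 with no minimum (18.5% and 29.7% of all sequences), 4 and 5 at 50 RPM (12.4% and 20.7%) and 2 and 9 at 2-fold (3.13% and 9.54%).

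Members past the exact binomial test (7 higher, 4 lower) were 13 higher and 2 lower after centring (6.66% and 2.94% of all tested sequences). They were 10 and 2 under TMM (5.8% and 3.77%) and 9 and 3 on the gene-library base (5.33% and 4.74%). On the genome-mapped base they were 9 and 4 (4.13% and 7.07%). At 50 RPM they were 7 and 5 (16.1% and 29.3%), and with no minimum 7 and 3 (0.774% and 1.35%). With edgeR's exact test they were 4 higher and 1 lower at an assumed variation of 0.1 and 0 and 0 at 0.2, with 18 and 7 members at an unadjusted p under 0.05, while 191 and 8 of all 4727 sequences were called. Of 176 values of named members, 131 kept their sign and side, 22 lost the call, 6 gained it and 17 changed sign, each a member not called under the authors' scaling. The 176 include the other pseudocounts, which could change neither sign nor call. They also include edgeR's exact test, which could not change the sign. The 131 are therefore no measure of stability. On the gene-library base, under TMM and after centring, in this order, the log2 fold changes that turned positive were 0.057, 0.12 and 0.18 for BmTE_RM1-42, 0.10, 0.16 and 0.23 for BmTE_RM1-43, 0.13, 0.19 and 0.26 for BmTE_RM1-362, 0.077, 0.13 and 0.20 for BmTE_RM1-83 and 0.096, 0.15 and 0.22 for BmTE_RM6-994. BmTE_RM1-362 was also positive, at 0.020, on the genome-mapped base, and BmTE_RM6-525, at 0.0099, after centring.

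Without the most abundant member, the log2 odds ratio was −0.045 against LTR elements, −0.22 against SINEs and −0.045 against short unclassified sequences, and without the 10 most abundant −0.018, −0.20 and −0.018, all no longer past the threshold. Without BmTE_RM6-6914 and BmTE_RM1-295, chosen after seeing the data, it was −0.024 against LINEs, −0.093 against SINEs, 0.086 against LTR elements and 0.087 against short unclassified sequences. The median density of 9.52 and 8.74 RPKM was 9.39 and 7.42 at 1000 nt or more and 27.0 and 24.0 over members of at least 10 RPM, and the top 10 took 65.4% and 62.8% of the reads on these. The causes of these shifts were not tested.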
